A study of Mus musculus with 6 samples.

Results

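The regions described here are the upstream flanks of promoters: accessible intervals that lie between 300 and 1000 bp upstream of a transcription start site (TSS), beyond the stretch next to the start itself. They were chosen by position and base composition, without use of the read counts. An interval was taken where its midpoint lay 300 to 1000 bp upstream of the nearest TSS of a protein-coding transcript (2038 of the 39768 intervals). Of these, 2005 were on autosomes, 1914 of those were under 500 bp wide, 1899 of those were not within 500 bp of protein-coding TSSs of different genes on both strands, and 1608 of those had a GC content of at least 50% in the 200 bp around the midpoint. These 1608 flank intervals are 4.04% of the table and belong to 1254 genes, or 5.60% of the 22380 annotated protein-coding genes.

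Open chromatin was profiled by ATAC-seq, with 50000 muscle nuclei per library, from C57BL/6 mice aged 7 weeks. In this assay the Tn5 transposase cuts DNA that nucleosomes leave exposed, and the number of cut fragment ends in an interval measures how open it is. The 3 CTL libraries came from mice that were H2A.Z-1 flox/flox as well as H2A.Z-2 flox/flox and had no HSA CRE, and the 3 libraries labelled H2A.Z dKO came from mice with the same floxed alleles and HSA CRE. All animals therefore carried both floxed genes, which encode the forms of histone variant H2A.Z. HSA CRE is driven by the skeletal actin promoter in differentiated muscle cells, so that nuclei of other cells in the muscle kept H2A.Z. Per the labels the nuclei were from tibialis anterior muscle and were purified through sucrose, whereas the study's methods describe whole hind limb muscles and a Dounce homogenizer. The labels do not say that each library came from a separate animal, and p-values then measure only the spread between these libraries.

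Active promoters hold a nucleosome-depleted region just upstream of the TSS, bounded by the -1 and the +1 nucleosome, and both of these nucleosomes often carry H2A.Z. The proximal regulatory region takes in the nucleosome-depleted region and DNA beyond the -1 nucleosome. Sequence-specific factors such as SP1 (at GC boxes), NF-Y (at CCAAT boxes) and, in muscle, MEF2 and the MyoD family bind there. Many mammalian promoters lie in CpG islands, stretches rich in G and C that keep their CpG dinucleotides, and an island can reach well beyond the nucleosome-depleted region. The study asked whether removing H2A.Z from muscle fibres alters chromatin accessibility.

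The sequences below show what such flanks are made of. They are from the mm9 genome, written 5′ to 3′ on the strand of the gene, and the capitals mark matches on either strand to a fixed set of short motifs that are spelled out with their shares further below. Intervals wider than 200 bp are printed as their central 200 bp, and the coordinates and the motifs named here are those of the printed stretch. The first set shows flank intervals among the 8 with the highest accessibility of those at least 73 bp wide with 20 or more counts in every library: that of Slc25a42 (a mitochondrial carrier of coenzyme A, chr8:72736565-72736764, minus strand), that of Banp (a nuclear protein that binds unmethylated CGCG motifs, chr8:124473969-124474168, plus strand), that of Mnt (a repressor that pairs with MAX, chr11:74643817-74644016, plus strand) and that of Plekhg2 (a protein with a pleckstrin homology domain, chr7:29158016-29158117, minus strand).
Slc25a42: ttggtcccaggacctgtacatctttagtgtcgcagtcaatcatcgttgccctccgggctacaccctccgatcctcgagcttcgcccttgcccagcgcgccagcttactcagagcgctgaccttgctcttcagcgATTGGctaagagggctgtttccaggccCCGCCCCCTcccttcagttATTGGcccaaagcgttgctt
Banp: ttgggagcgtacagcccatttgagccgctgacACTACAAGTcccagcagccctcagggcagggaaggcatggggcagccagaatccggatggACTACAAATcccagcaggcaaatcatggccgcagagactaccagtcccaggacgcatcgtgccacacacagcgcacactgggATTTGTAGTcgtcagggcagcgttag
Mnt: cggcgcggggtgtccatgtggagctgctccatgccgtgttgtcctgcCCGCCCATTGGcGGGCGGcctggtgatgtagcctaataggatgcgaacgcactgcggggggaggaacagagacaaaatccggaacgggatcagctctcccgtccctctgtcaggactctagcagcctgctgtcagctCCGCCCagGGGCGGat
Plekhg2: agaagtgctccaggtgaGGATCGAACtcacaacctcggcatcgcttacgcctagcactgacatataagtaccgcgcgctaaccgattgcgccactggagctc
The printed Slc25a42 sequence held 1 GC box, overlapped by a match to the CTCF part-motif, and 2 CCAAT boxes, and the Mnt flank held 4 GC boxes with a CCAAT box between 2 of them. The Banp flank held neither, but it held 3 copies of ACTACAANT, the start of the longer motif bound by ZNF143, which was the most in any flank window. The Plekhg2 interval held GTTCGANNC, the B box at which TFIIIC binds inside tRNA genes, and RefSeq places a tRNA gene less than 1 kb upstream of Plekhg2.

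The second set shows the flank of Slc2a4, the gene of the insulin-responsive glucose transporter GLUT4, whose promoter is known for a MEF2 element that muscle expression needs. The first sequence lies about 430 bp (chr11:69761981-69762180) and the second 672 bp (chr11:69762283-69762362) upstream of the TSS, both on the minus strand. The second is printed as 80 bp around an interval of 26 bp (chr11:69762310-69762335), and its marked GC box lies outside that interval. The third sequence is the flank of Bhlhe40, a repressor of the circadian clock (chr6:108609948-108610114, plus strand).
Slc2a4, nearer: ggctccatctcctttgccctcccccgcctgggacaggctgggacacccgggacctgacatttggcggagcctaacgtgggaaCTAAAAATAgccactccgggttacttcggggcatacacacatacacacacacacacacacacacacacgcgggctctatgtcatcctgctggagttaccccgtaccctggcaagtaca
Slc2a4, farther: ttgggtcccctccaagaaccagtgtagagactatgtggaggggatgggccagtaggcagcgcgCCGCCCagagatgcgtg
Bhlhe40: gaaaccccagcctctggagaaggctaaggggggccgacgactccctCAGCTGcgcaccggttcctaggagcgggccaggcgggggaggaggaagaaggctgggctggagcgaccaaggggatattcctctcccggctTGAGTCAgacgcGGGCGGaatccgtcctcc
The nearer Slc2a4 flank held 1 match to the MEF2 site CTAAAAATA, and the Bhlhe40 flank held a MyoD-type E-box, an AP-1 site and a GC box. The third set shows flanks chosen for a small unadjusted p in the comparison of the groups: Gm12824 (chr4:114078452-114078651, plus strand) and Prkca (chr11:108205545-108205658, minus strand), both with higher counts in H2A.Z dKO, and Tmcc2, the widest of the 5 named below with lower counts (central stretch, chr1:134288300-134288499, minus strand).
Gm12824: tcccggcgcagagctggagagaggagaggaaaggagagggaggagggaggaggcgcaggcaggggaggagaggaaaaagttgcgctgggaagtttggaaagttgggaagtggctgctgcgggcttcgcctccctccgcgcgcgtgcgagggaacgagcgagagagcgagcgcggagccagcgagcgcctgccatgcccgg
Prkca: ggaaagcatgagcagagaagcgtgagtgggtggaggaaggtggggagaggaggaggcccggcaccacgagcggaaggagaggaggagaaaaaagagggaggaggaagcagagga
Tmcc2: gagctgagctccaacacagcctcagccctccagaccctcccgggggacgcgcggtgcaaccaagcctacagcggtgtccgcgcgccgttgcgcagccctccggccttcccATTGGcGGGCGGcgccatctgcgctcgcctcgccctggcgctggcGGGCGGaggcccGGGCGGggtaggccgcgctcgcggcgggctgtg
The printed Gm12824 and Prkca sequences held none of the motifs searched, and that of Tmcc2 held 3 GC boxes and a CCAAT box.

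The flank intervals mostly stood beside other intervals and were narrower than those of the promoter core. Their median width was 125.5 bp (range 9 to 493 bp), against 241 bp for the 7030 core intervals, that is those that met the same rules with a midpoint 0 to 300 bp upstream of the TSS, 152 bp downstream of the TSS and 137 bp over all intervals. A total of 467 flank intervals (29.0%, against 29.2% of all intervals) were narrower than 73 bp. The authors called peaks with a window of either 73 bp or 9 bp around each fragment end, and although the table is labelled as made with the wider window, its narrowest interval is 9 bp. Which window made these intervals is not settled here, and the widths, the RPKM and the limit of 73 bp depend on it. The table lists 616 flank intervals (38.3%) as peaks of both groups, 657 (40.9%) of H2A.Z dKO alone and 335 (20.8%) of CTL alone, against 62.3%, 25.7% and 12.0% of core intervals and 38.7%, 43.4% and 17.9% of all intervals. The median gap to the nearest other interval was 80 bp, and 1152 flank intervals (71.6%) had another interval within 147 bp, the length of DNA on a nucleosome. Only 156 (9.70%) lay more than 1000 bp from any other interval. Since 363 (22.6%) overlapped another interval, some fragment ends were counted in more than 1 of them.

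For 1036 of the 1254 genes (82.6%), an interval also lay within 300 bp of the TSS, and 218 genes were represented by the flank without one. The 291 flank intervals of these 218 genes had a median level of 125 RPKM, against 148 RPKM for those of the other genes (RPKM are fragment ends scaled by interval width and by the ends in all intervals of the library, here averaged over the 6 libraries). Most genes, 989, had a single flank interval, 198 had 2, 50 had 3, 12 had 4 and 5 had 5. By the GENCODE vM1 annotation, 1087 midpoints (67.6%) lay outside any annotated gene, 388 (24.1%) in an intron (244 of the gene itself, through its other start sites, and 144 of a neighbour), 117 (7.28%) in the non-coding part of an exon and 16 (0.995%) in a coding exon. A start site of some other annotated transcript lay nearer than the protein-coding one for 281 (17.5%). Of the 58 flank intervals within 100 bp of the start of a non-protein-coding transcript, 33 faced a transcript of the opposite strand, and their median level of 145 RPKM stood beside 144 RPKM for the other 1550.

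The flanks had fewer CpG dinucleotides than the core, but far more than GC-rich DNA away from genes. The ratio of observed to expected CpG in the 200-bp window had a median of 0.656 in the flank, 0.823 in the core and 0.256 in the 7466 GC-rich intervals more than 10 kb from any TSS. It exceeded 0.6, a common criterion for CpG islands, in 925 flank windows (57.5%), 80.1% of core windows and 8.72% of the distant ones. Along the flank the median ratio went from 0.686 at 300 to 400 bp to 0.553 at 900 to 1000 bp. Flank intervals above 0.6 were wider than those below (median 152 against 96 bp) and had a median level of 149.6 RPKM against 137 RPKM. These are properties of the sequence windows and are given as descriptions.

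For most motifs the share of flank windows lay between that of the core and that of distant regions, with the TATA box and the B box as exceptions. Each motif was searched on both strands in the 200 bp around every midpoint, and its share is given for flank, core and distant windows. The GC box GGGCGG was in 44.1% of flank, 66.3% of core and 13.2% of distant windows, and the CCAAT box in 22.8%, 30.4% and 19.1%. The motifs that mark the core of CpG island promoters were rarer in the flank: the ETS site CCGGAAG was in 4.85% of flank against 15.2% of core windows, the NRF1 site GCGCATGC in 2.74% against 4.67%, and the cAMP response element TGACGTCA in 1.24% against 3.30%. Sites of distal regulatory factors had the reverse order, with the AP-1 site TGANTCA in 5.60% of flank, 2.46% of core and 12.3% of distant windows, and the E-box CAGCTG bound by MyoD-type factors in 12.7%, 11.2% and 28.0%. The E-box CACGTG of the clock and MYC families was in 6.84% of flank and 8.73% of core windows. AGGGGGC, a part of the CTCF motif that can overlap a GC box, was in 10.8% and 14.7%, and the TATA box TATAAA was in 2.30%, 2.77% and, of distant windows, 3.71%. Flank windows with a GC box had a median level of 155 RPKM against 139 RPKM without one, and those with an AP-1 site 131 RPKM against 144 RPKM. A match is a stretch of letters and not evidence of binding.

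The MEF2 site CTAAAAATA was in 9 flank windows (0.560%), against 0.284% of core and 1.23% of distant windows. A pair of the 9 were overlapping intervals of Slc2a4, and the others were at Klhl30, Zfp335, Lmcd1, Mtus1, Ky, Cdk13 and Patl1. The genes Lmcd1 and Ky are known for their expression in striated muscle. The last 2 motifs were added after the printed sequences had been read, those of Banp and Plekhg2 among them. Their matches in the printed intervals are therefore descriptions and no independent result. GTTCGANNC was in 23 flank windows (1.43%), 0.583% of core and 0.295% of distant windows, and ACTACAANT was in 17 (1.06%), 2.19% and 0.281%. Among the 8 flank intervals with the highest levels of those at least 73 bp wide with 20 or more counts in every library, 3 had ACTACAANT in their window (Banp, Plekhg2 and Zbtb7a). This count includes intervals that had been read before the motif was added. RefSeq could be searched by symbol for 1114 of the 1254 genes, and 7 of them had a tRNA gene within 1 kb upstream, of which Plekhg2, Ctnna3 and Psmb3 also had a B box match in a flank window.

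The flank had a level per base close to that of the core. The median level of flank intervals was 143 RPKM in each of CTL replicates 1 and 2 (142.6 and 143.1) and 144 RPKM in CTL replicate 3, and it was 153, 139 and 137 RPKM in H2A.Z dKO replicates 1, 2 and 3. The 6 medians of the core were between 136 and 139 RPKM, those of intervals 0 to 300 bp downstream of the TSS between 118 and 129 RPKM, and those of distant GC-rich intervals between 83.0 and 103 RPKM. The interquartile range of the mean levels of flank intervals was 113 to 188 RPKM, and the whole range was 52.5 to 403 RPKM. On the log2(RPKM + 1) scale the median of the flank exceeded that of the core by 0.051 ± 0.052 (SD, n = 6 libraries), with a positive difference in 5 of 6 libraries, which did not pass the exact sign-flip test over libraries (two-sided p = 0.0625, where the smallest possible p is 0.031). It was 0.020 in intervals of at least 73 bp (exact sign-flip test, two-sided p = 0.5625) and 0.032 without H2A.Z dKO replicate 1. By group it was 0.047 ± 0.015 for CTL and 0.055 ± 0.081 for H2A.Z dKO (SD, n = 3 each), which did not differ beyond their spread (two-sided exact permutation p = 1). Without H2A.Z dKO replicate 1 the difference between the groups turned from 0.008 to -0.037 (two-sided exact permutation p = 0.1, the smallest that 2 against 3 libraries can give). At both limits of the rule the median was somewhat higher just inside than just outside. It was 124 RPKM for the 136 intervals 280 to 300 bp upstream and 134 RPKM for the 144 flank intervals at 300 to 320 bp. It was 122 RPKM for the 86 otherwise eligible intervals with a GC content of 48 to 50% and 135 RPKM for the 171 flank intervals at 50 to 52%. These steps were not tested.

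Within a gene the order was the other way round. In the 742 genes with both kinds of interval, the strongest flank interval was below the strongest core interval by a median of 0.21, 0.21 and 0.22 on the log2 scale in CTL replicates 1 to 3 and by 0.20, 0.21 and 0.22 in H2A.Z dKO replicates 1 to 3. The mean difference was -0.214 ± 0.0080 (SD, n = 6), lower in 6 of 6 libraries (exact sign-flip test, two-sided p = 0.031, the smallest that 6 libraries can give). It did not differ between the groups beyond their spread (-0.216 ± 0.0057 in CTL and -0.211 ± 0.011 in H2A.Z dKO, SD, n = 3 each, exact permutation test, two-sided p = 0.5). The strongest flank interval was below the core in all 6 libraries in 315 genes (42.5%) and above it in all 6 in 123 genes (16.6%), and 304 genes were in neither case. The 2 comparisons differ in that a gene contributes its strongest interval to the second and each of its intervals to the first. They also differ in their genes, since only the 742 genes with both kinds of interval enter the second. The part of each was not tested.

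The number of flank intervals fell away with distance, but their level did not. Only called peaks are in the table, so that regions with levels too low to be called are missing from these medians. There were 522 at 300 to 400 bp, 354, 219, 192, 139 and 98 in the next steps of 100 bp, and 84 at 900 to 1000 bp. In CTL the median level was 137 RPKM ± 2.79 (SD, n = 3) in the first step, 145 RPKM ± 3.25 in the second, 152 RPKM ± 3.99 at 600 to 700 bp and 141 RPKM ± 4.28 in the last. The near flank (up to 500 bp, 876 intervals) was lower than the far flank (from 700 bp, 321 intervals) by 0.073 ± 0.054 on the log2 scale (SD, n = 6), in 6 of 6 libraries (exact sign-flip test, two-sided p = 0.031), and the groups did not differ in it beyond their spread (exact permutation test, two-sided p = 0.2). This difference was -0.036 when the TSSs of all transcripts of protein-coding genes were used and -0.065 in intervals of at least 73 bp, and passed in neither (exact sign-flip test, two-sided p = 0.21875 and 0.0625).

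**Figure D1:**
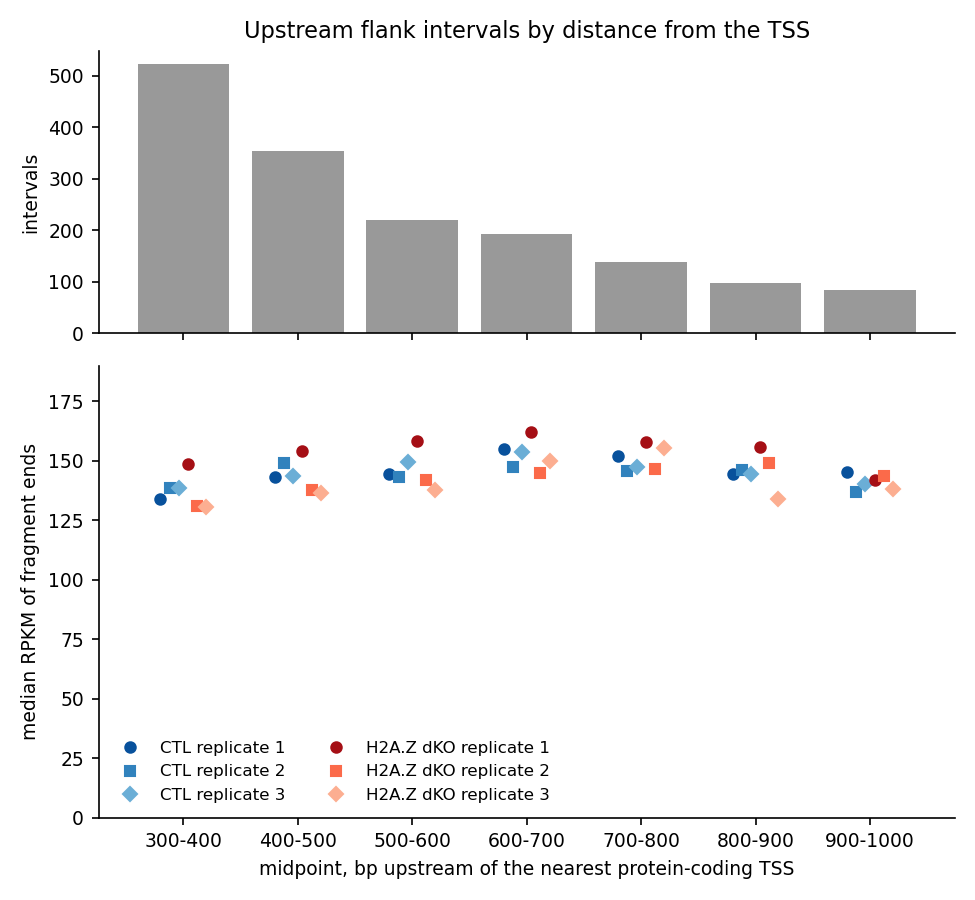
Number of flank intervals (bars, upper panel) and their median accessibility in RPKM in each of the 6 libraries (points, lower panel, axis from 0) in steps of 100 bp upstream of the TSS. The number goes from 522 to 84, whereas the CTL medians stay between 134 and 155 RPKM, and H2A.Z dKO replicate 1 has the highest median in each step but the last.

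The highest flank levels, among intervals of at least 73 bp with 20 or more counts in every library, were those of Slc25a42, Banp, Egr1, Hnrnpa0, Zbtb7a, Plekhg2, Lnpep and Mnt, with means of 341 to 377 RPKM. The Slc25a42 flank had 353, 386 and 399 RPKM in CTL replicates 1 to 3 and 389, 388 and 351 RPKM in H2A.Z dKO replicates 1 to 3. That of Banp, in an intron of other transcripts of the gene, had 373, 374 and 411 RPKM in CTL and 360.2, 353 and 366 RPKM in H2A.Z dKO. The groups overlapped in the first of these and did not in the second, where all H2A.Z dKO values were lower, as in 5.63% of all intervals (log2 fold change -0.10 ± 0.10 SE, edgeR adjusted p = 0.984). Egr1, an immediate-early transcription factor, had 369, 361 and 368 RPKM in CTL and 390.2, 366 and 364 RPKM in H2A.Z dKO. The flank of Lnpep, which encodes the aminopeptidase that travels with GLUT4 in insulin-responsive vesicles, had 347, 326 and 319 RPKM in CTL and 424, 330.2 and 304 RPKM in H2A.Z dKO. Here and at Hnrnpa0, an RNA-binding protein (356, 318 and 381 RPKM in CTL, 440.2, 326 and 349.8 RPKM in H2A.Z dKO), the highest value was that of H2A.Z dKO replicate 1. Zbtb7a, a transcriptional repressor, had 321, 337 and 378 RPKM in CTL and 402, 352 and 319.5 RPKM in H2A.Z dKO, and Mnt had 339, 345 and 337 RPKM in CTL and 326, 335 and 365 RPKM in H2A.Z dKO. The Plekhg2 flank had its lowest value in H2A.Z dKO replicate 1, with 375, 316 and 326 RPKM in CTL and 279, 412 and 344 RPKM in H2A.Z dKO. For these 8 the log2 fold changes were between -0.10 and 0.10, with adjusted p of 0.984 to 0.999 (edgeR).

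Genes with many flank intervals are given next, although their intervals did not always span an upstream region. A tie of 5 genes had 5 flank intervals each: Slc2a4, Nsd1 (a methyltransferase of histone H3), Ankrd17 (an ankyrin repeat protein), Fgf1 (a growth factor) and Slc43a2 (an amino acid transporter). In Ankrd17 each of the 5 overlapped another interval, as did 4 of the 5 in Fgf1, 3 in Nsd1, 3 in Slc43a2 and 2 in Slc2a4, so that the sums below count some fragment ends more than once. The 5 of Ankrd17 lay within a single stretch (chr5:90795534-90795737). In Fgf1 and Slc43a2 the intervals belonged to 2 start sites each. Those of Nsd1 lay in an intron of that gene, those of Fgf1 in introns of Arhgap26, and most of those of Slc43a2 inside that gene. The summed accessibility of the 5 Slc2a4 intervals was 102, 84.2 and 93.7 CPM (counts scaled to the library total) in CTL and 125, 103 and 89.0 CPM in H2A.Z dKO (93.4 ± 9.05 and 106 ± 17.9, SD, n = 3 each, exact permutation test, two-sided p = 0.4). The sums were 154 ± 11.1 and 152 ± 44.9 CPM for Nsd1 (p = 1 in the exact permutation test), where H2A.Z dKO replicate 1 had 203 CPM and the other two 135 and 118 CPM. For Ankrd17 they were 159.5 ± 19.5 and 172 ± 39.4 CPM (exact permutation p = 0.6), for Fgf1 47.8 ± 7.17 and 45.7 ± 5.77 CPM (exact permutation p = 0.7) and for Slc43a2 99.3 ± 1.94 and 93.6 ± 5.58 CPM (exact permutation p = 0.3). Without H2A.Z dKO replicate 1 the difference in the sum went from 12.1 to 2.60 CPM for Slc2a4 and from -5.69 to -2.99 CPM for Slc43a2, it turned from 12.7 to -9.83 CPM for Ankrd17 and from -2.05 to 1.25 CPM for Fgf1, and it went from -1.77 to -27.3 CPM for Nsd1. None of the 5 sums differed between the groups beyond the spread of the libraries, and 3 against 3 libraries cannot give a p below 0.1.

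Along the Slc2a4 upstream region the intervals differed in level and in how the groups compared. The interval with the MEF2 match, 430 bp upstream and 223 bp wide, had 147.3, 120.1 and 138 RPKM in CTL and 218, 169.5 and 128 RPKM in H2A.Z dKO (log2 fold change 0.35 ± 0.18 SE, edgeR, adjusted p = 0.972). A second interval lay within it, at 205 bp, and shared most of its fragment ends. The interval 672 bp upstream, 26 bp wide, was the highest of the gene, with 327, 332 and 273 RPKM in CTL and 229, 219.8 and 245 RPKM in H2A.Z dKO (log2 fold change -0.44 ± 0.23 SE, edgeR, adjusted p = 0.972). Its groups did not overlap, on 25 to 52 counts per library, and those of the other 4 did (of all intervals, 5.22% were apart with H2A.Z dKO higher and 5.63% with it lower). Without H2A.Z dKO replicate 1 the log2 fold change of the interval with the MEF2 match was 0.11, and that of the one within it went from 0.33 to 0.044. The interval 860 bp upstream had 227, 190.1 and 223 RPKM in CTL and 182, 161 and 223 RPKM in H2A.Z dKO, and the one at 987 bp had 236, 162 and 167 RPKM in CTL and 164, 235 and 203 RPKM in H2A.Z dKO. The strongest core interval of the gene, 179 bp upstream, had a mean of 226 RPKM.

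**Figure D2:**
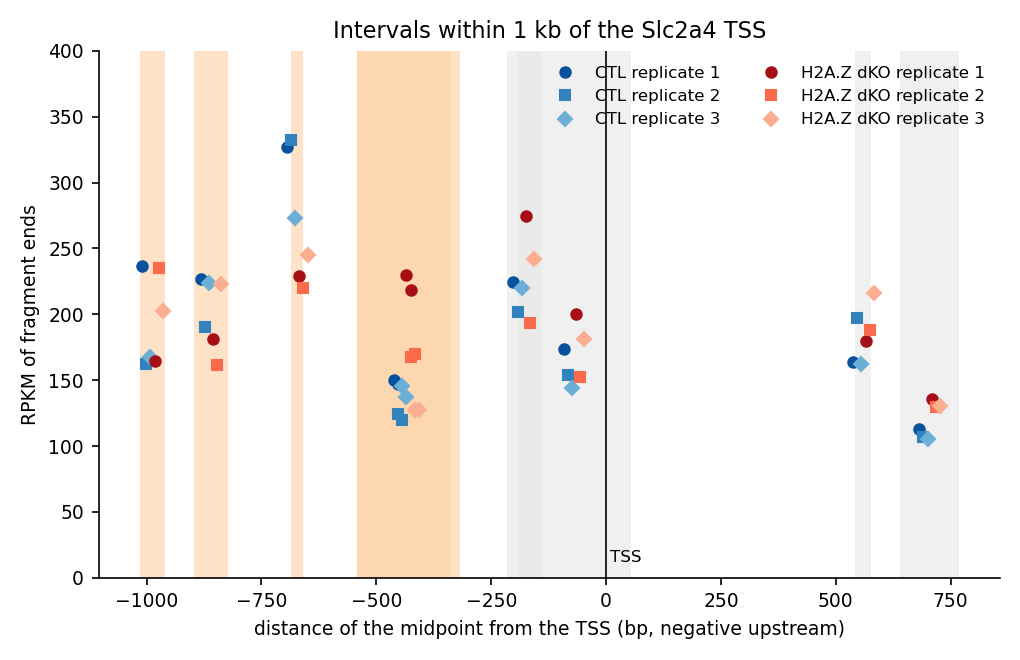
Accessibility in RPKM of the 9 intervals within 1 kb of the Slc2a4 TSS in each of the 6 libraries, by the distance of their midpoint from the TSS (points are shifted slightly to keep them apart). Shading gives the width of each interval, orange for the 5 flank intervals and grey for the others, and at 672 bp upstream the 3 CTL values of 273 to 332 RPKM lie above the 3 H2A.Z dKO values of 219.8 to 245 RPKM.

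The gene lists of muscle are short, and each held few flank intervals in number. Of all annotated protein-coding genes 5.60% had a flank interval, a share below that of the muscle fibre list (7 of 35). That share is the background for the gene counts here and below, and differences from it were not tested. Among 35 genes of muscle fibres, most of them of the contractile and calcium-handling apparatus, 23 had an interval within 1 kb of a TSS, 19 a core interval and 7 a flank interval (Cacna1s, Casq1, Ldb3, Neb, Tcap, Tnnt3 and Tpm2, with 9 flank intervals and a median level of 169 RPKM). The flank of Tnnt3, fast troponin T, had 250.0, 235 and 284 RPKM in CTL and 265, 304 and 287 RPKM in H2A.Z dKO. That of Tpm2, beta-tropomyosin, had 196, 265 and 243 RPKM in CTL and 355, 169.5 and 250.4 RPKM in H2A.Z dKO, and that of Ldb3, a protein of the Z-disc, had 220.5, 100.5 and 198 RPKM in CTL and 162, 245 and 189.9 RPKM in H2A.Z dKO. Of the 9 intervals, 6 had positive log2 fold changes and 3 negative ones, with a median of 0.159 (all intervals: 0.012), and without H2A.Z dKO replicate 1 the median was 0.005. At an unadjusted p under 0.05 the count was 0 of 9, where the background over all intervals is 2.64% higher and 2.31% lower, so that a list this short could hold 0 without differing from it.

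Among 16 myogenic regulators, 3 had flank intervals (Eya4, Mef2c and Mef2d), and the 43-bp flank of Mef2d, a MEF2 factor itself, had 259, 286 and 238 RPKM in CTL and 245, 286 and 167 RPKM in H2A.Z dKO. The flank of Eya4, a transcriptional coactivator, had 90, 83 and 66 counts in CTL and 229, 69 and 89 counts in H2A.Z dKO, so that a single library, H2A.Z dKO replicate 1, stood above the rest. The 4 flank intervals of this list had a median log2 fold change of 0.113, or -0.130 without that library. Among 16 regulators of muscle metabolism, 4 had 7 flank intervals, 6 of them with a negative log2 fold change (median -0.194, and -0.151 without H2A.Z dKO replicate 1). The orphan nuclear receptor Nr4a3 had the highest of them, with 403, 363 and 396 RPKM in CTL and 286, 275 and 398 RPKM in H2A.Z dKO, and its relative Nr4a1 had 297, 136 and 316 RPKM in CTL and 170.3, 219.8 and 243 RPKM in H2A.Z dKO. Esrra, a nuclear receptor of oxidative genes, had 281, 182 and 311 RPKM in CTL and 271, 254 and 143 RPKM in H2A.Z dKO. The 366-bp flank of Irs2, an adaptor of insulin signalling, had 239, 238.5 and 241 RPKM in CTL and 236, 216 and 238.3 RPKM in H2A.Z dKO. The groups overlapped at Nr4a3, Nr4a1 and Esrra and were just apart at Irs2 (log2 fold change -0.056 ± 0.107 SE, edgeR adjusted p = 0.993), as were 5.63% of all intervals with H2A.Z dKO lower.

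Among 14 clock genes, 5 had 8 flank intervals. Bhlhe40 had 297, 336 and 272 RPKM in CTL and 361, 295 and 293 RPKM in H2A.Z dKO, Per1 had 314, 327 and 327 RPKM in CTL and 289, 278 and 306 RPKM in H2A.Z dKO, and Cry1 had 181, 192 and 188 RPKM in CTL and 204, 187 and 196 RPKM in H2A.Z dKO. Only in Per1, among these 3, did the groups not overlap, with H2A.Z dKO lower as in 5.63% of all intervals (log2 fold change -0.15 ± 0.15 SE, edgeR adjusted p = 0.983). Of the 8, 7 had a positive log2 fold change (median 0.068, and 0.015 without H2A.Z dKO replicate 1). Among 19 genes of the response to denervation, 4 had a flank interval each (Fbxo30, Fbxo32, Hdac4 and Hdac5), all with a positive log2 fold change (median 0.172, and 0.159 with 3 positive without H2A.Z dKO replicate 1). Myog, Musk and the acetylcholine receptor genes Chrna1, Chrnd, Chrne and Chrng of that list had no interval within 1 kb. Among 21 genes of H2A.Z and its exchange, all had an interval within 1 kb and 4 a flank interval (Ep400, Epc2, Ino80 and Trrap). Ep400, an ATPase that exchanges H2A.Z into nucleosomes, had 227, 218 and 256 RPKM in CTL and 274, 207 and 219 RPKM in H2A.Z dKO, and the median log2 fold change of the 4 was 0.103, or -0.099 without H2A.Z dKO replicate 1. The myogenic, metabolic, clock, denervation and H2A.Z lists also held 0 intervals at an unadjusted p under 0.05, with the same background of 2.64% and 2.31% and the same limit.

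Of the housekeeping families, 7 of 81 genes of cytosolic ribosomal proteins had 9 flank intervals (8 with a positive log2 fold change, median 0.194, and 6 with a median of 0.139 without H2A.Z dKO replicate 1). For 76 mitochondrial ribosomal protein genes there were 6 flank intervals at 4 genes (median 0.004) and for 40 proteasome genes 4 at 2 genes (median 0.105). Without H2A.Z dKO replicate 1 these medians were -0.096 and 0.070. The 364 Zfp genes, many of them zinc finger repressors, had 29 flank intervals at 23 genes, with 17 positive and a median of 0.009, or 7 and -0.102 without H2A.Z dKO replicate 1. In these families 2 intervals, both of Zfp genes and both higher in H2A.Z dKO, had an unadjusted p under 0.05, where the background is 2.64% higher and 2.31% lower among all intervals. They are named after their values were seen: Zfp362 (CTL counts of 41, 33 and 22, H2A.Z dKO counts of 75, 46 and 37) and Zfp395 (CTL counts of 50, 34 and 38, H2A.Z dKO counts of 89, 40 and 63). None of the listed members had an adjusted p under 0.05 in edgeR.

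Between CTL and H2A.Z dKO, 0 of the 1608 flank intervals had an adjusted p under 0.05 in edgeR's quasi-likelihood test over all 39768 intervals (background 0%), and DESeq2 also called 0. No adjusted p was below 0.855. Before adjustment, 46 flank intervals (2.86%) were higher and 19 (1.18%) lower in H2A.Z dKO at p under 0.05, against a background of 2.64% and 2.31% of all intervals. Without H2A.Z dKO replicate 1 the split turned, to 35 higher (2.18%) and 83 lower (5.16%), against 4.24% and 3.71% of all intervals, and the total went from 65 to 118. Without CTL replicate 3 the total was 39. The RPKM of the groups did not overlap, with H2A.Z dKO higher, in 94 (5.85%, background 5.22%), and with H2A.Z dKO lower in 89 (5.53%, background 5.63%). The median absolute log2 fold change was 0.126, whereas the 95% confidence interval reached a median of 0.425 to either side. The interval of the difference lay wholly within a 2-fold change for 94.5% of flank intervals and within a 1.5-fold change for 56.5%, so that smaller changes of a single flank were not detectable with these libraries. The median count was 76.4 per interval and library and the median dispersion between libraries 0.0163, and the parts of depth and of the spread between libraries in this limit were not tested.

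The 5 flank intervals with the smallest p and higher counts in H2A.Z dKO were those of Gm12824 (a predicted gene), Prkca (protein kinase C alpha), Adora2b (an adenosine receptor), Gm4980 (a predicted gene) and Gna13 (a G protein subunit). The Gm12824 flank, 777 bp upstream, had 66, 45 and 29 counts in CTL and 139, 76 and 85 in H2A.Z dKO, or 45.85 RPKM ± 6.13 and 91.4 RPKM ± 18.9 (SD, n = 3 each). Its log2 fold change was 0.99 ± 0.22 (SE, edgeR adjusted p = 0.855, and 0.392 to 0.9998 over the alternatives). The Prkca flank, in an intron of its neighbour Apoh, had 57.4, 79.6 and 99.7 RPKM in CTL and 158, 119.5 and 129 RPKM in H2A.Z dKO (log2 fold change 0.83 ± 0.23 SE, edgeR adjusted p = 0.972). That of Adora2b, 34 bp wide, had 12, 10 and 8 counts in CTL and 23, 19 and 21 in H2A.Z dKO. In Gm4980 (60.2, 88.1 and 70.45 RPKM in CTL, 129, 125 and 98.8 RPKM in H2A.Z dKO) and Gna13 (135, 123 and 81.2 RPKM in CTL, 224, 176 and 199 RPKM in H2A.Z dKO) the groups did not overlap either. The choice of the smallest p favours such separation. So does peak calling, since all 5 are listed as peaks of H2A.Z dKO alone and entered the table through the group where they are higher.

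The 5 with lower counts were those of Ace, Zdhhc12 (a palmitoyltransferase), Tmcc2 (a membrane protein), Map4k2 (a kinase) and 1810055G02Rik (an uncharacterised gene). The flank of Ace, angiotensin-converting enzyme, was in a coding exon of that gene, upstream of an inner start site, and had 19, 17 and 16 counts in CTL and 11, 6 and 11 in H2A.Z dKO. Its log2 fold change of -1.01 ± 0.32 (SE, adjusted p = 0.972 in edgeR) was the lowest of all flank intervals. The Tmcc2 flank, 266 bp wide, had 135, 160.0 and 147.4 RPKM in CTL and 83.2, 116 and 124 RPKM in H2A.Z dKO (log2 fold change -0.46 ± 0.16 SE, edgeR adjusted p = 0.972). That of Zdhhc12 had 119.9, 149.8 and 140.2 RPKM in CTL and 86.3, 79.1 and 85.0 RPKM in H2A.Z dKO. Map4k2 (149, 123 and 152 RPKM in CTL, 66.9, 106 and 96.0 RPKM in H2A.Z dKO) and 1810055G02Rik (232, 205 and 284 RPKM in CTL, 134, 104 and 168 RPKM in H2A.Z dKO) also had groups that did not overlap. All of these 5 but that of Tmcc2 are listed as peaks of CTL alone, so that peak calling favours their separation as well. Group means were at least 2-fold apart in 2 flank intervals, that of Ace and, named after its values were seen, that of Kcnip3 (CTL counts of 12, 10 and 4, H2A.Z dKO counts of 25, 17 and 13).

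**Figure D3:**
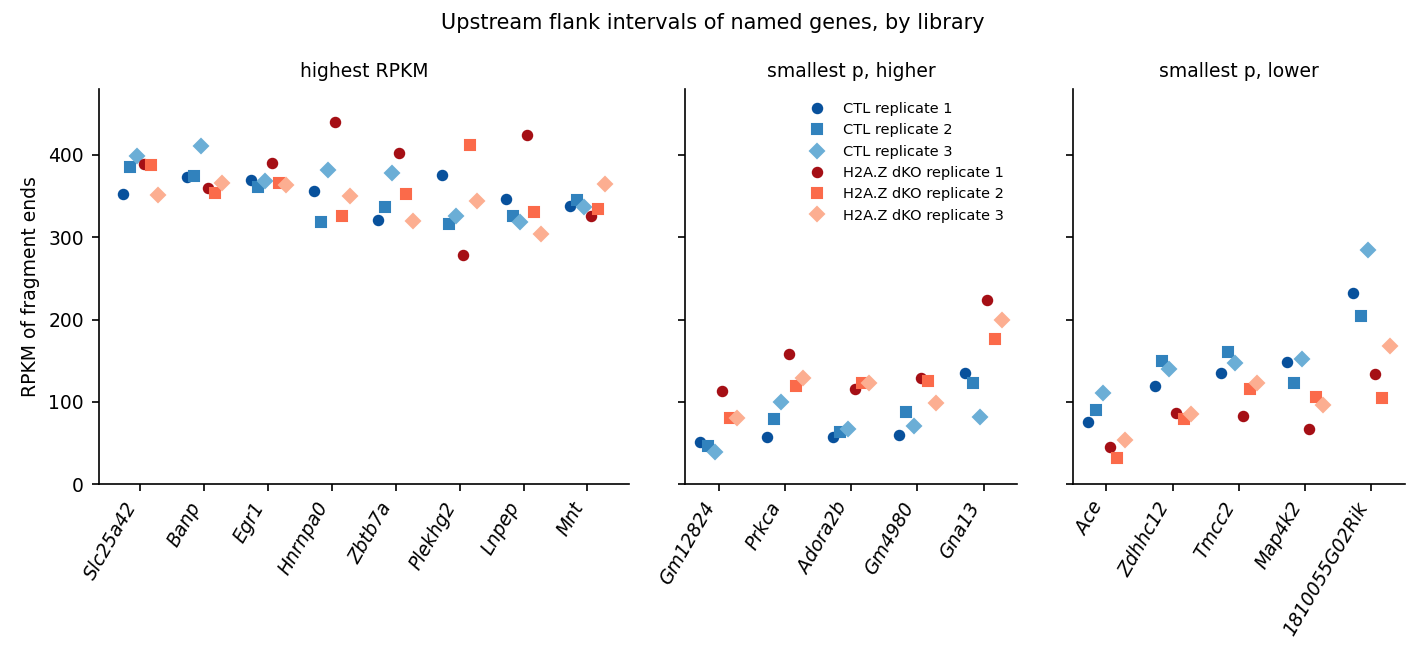
Accessibility in RPKM of the 8 flank intervals with the highest levels (among those at least 73 bp wide with 20 or more counts in every library) and of the 5 with the smallest unadjusted p in each direction, in each of the 6 libraries (1 point per library, axis from 0). The groups overlap in 7 of the 8 highest and do not in Banp (5.22% and 5.63% of all intervals are apart in either direction), and they are apart in the 10 that were chosen for their small p.

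**Figure D4:**
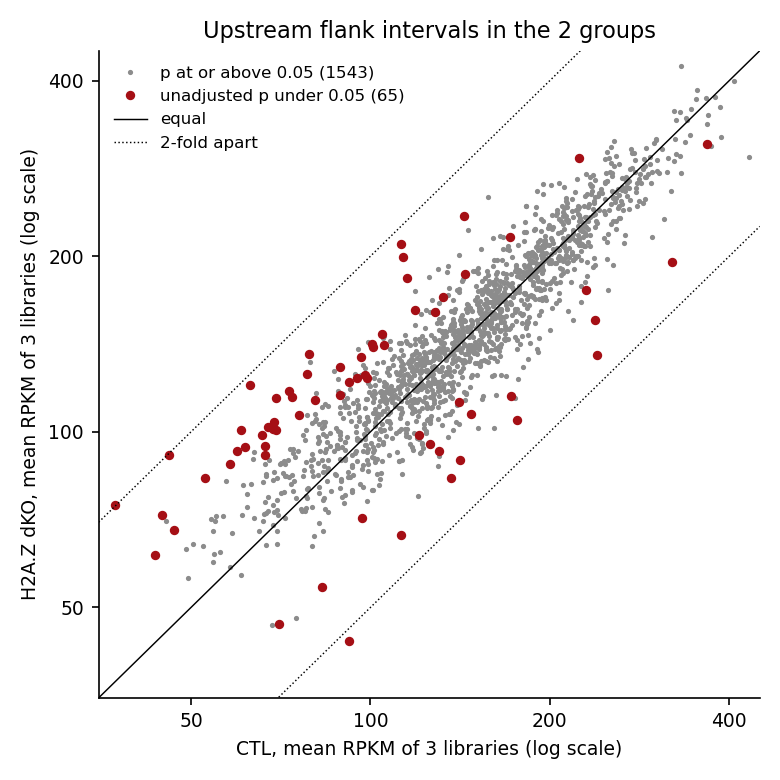
Mean RPKM in CTL (horizontal) and H2A.Z dKO (vertical) of the 1608 flank intervals, each over 3 libraries, on log axes. The solid line is equality and the dotted lines a 2-fold difference, and the red points are the 65 intervals with an unadjusted p under 0.05, 46 above and 19 below the line.

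As a whole the flank held 3.79%, 3.81% and 3.78% of all counted fragment ends in CTL replicates 1 to 3 and 4.12%, 3.70% and 3.71% in H2A.Z dKO replicates 1 to 3 (3.79% ± 0.017 and 3.84% ± 0.242, SD, n = 3 each, exact permutation test, two-sided p = 1). A single library, H2A.Z dKO replicate 1, was above every CTL library and the other two were below. Without it the difference turned from 0.049 to -0.091 percentage points (exact permutation test, two-sided p = 0.1, the smallest that 2 against 3 libraries can give). The median log2 fold change of the flank intervals was 0.029 with all libraries and -0.050 without H2A.Z dKO replicate 1, and the number with a positive value went from 913 (56.8%) to 628 (39.1%). Over all intervals it was 52.5% and 50.3%.

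H2A.Z dKO replicate 1 had the highest value of the 6 libraries in 675 flank intervals (42.0%), in 30.4% of core intervals and in 24.5% of all intervals. Its flank intervals deviated from the mean of the libraries by a median of 0.136 on the log2 scale, whereas it was -0.043 and -0.061 for the other H2A.Z dKO libraries, and -0.006 to 0.006 for CTL. The deviation in this library was 0.158 at 300 to 500 bp, 0.131 at 500 to 700 bp and 0.077 at 700 to 1000 bp upstream. In the 4739 intervals 0 to 300 bp downstream of the TSS it was 0.129, in the core 0.024 and in distant GC-rich intervals -0.121. Those of H2A.Z dKO replicates 2 and 3 had the opposite sign in each of these sets (for the flank, as a whole).

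**Figure D5:**
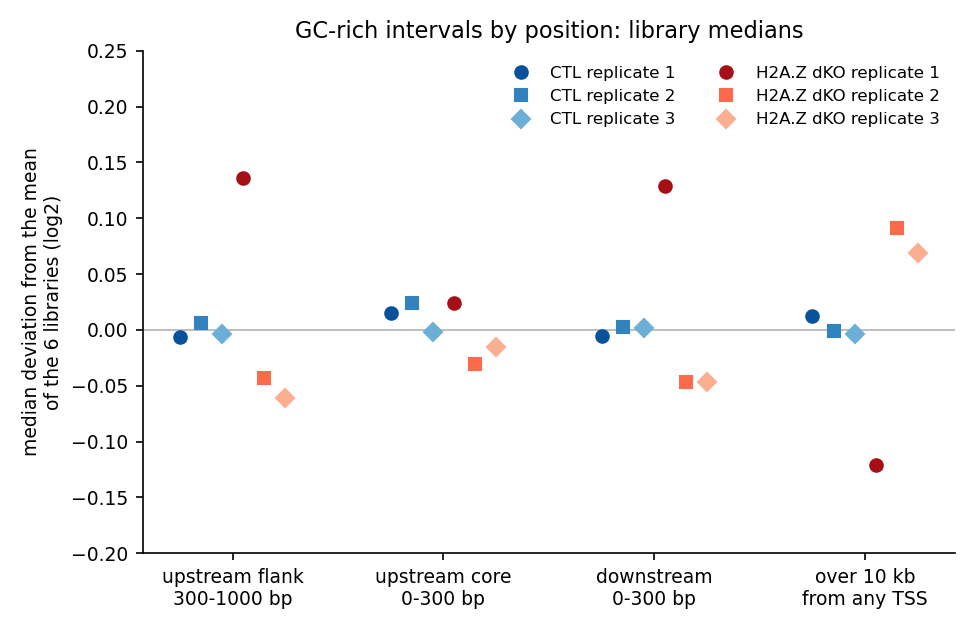
Median deviation of each library from the mean of the 6 libraries on the log2 scale, for GC-rich intervals in the upstream flank, in the upstream core, downstream of the TSS and more than 10 kb from any TSS (1 point per library). H2A.Z dKO replicate 1 lies at 0.136 in the flank, 0.129 downstream, 0.024 in the core and -0.121 in distant intervals, whereas the 3 CTL libraries lie within 0.024 of 0 in each.

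The depth and the labels of the libraries bear on all of these values. The counts summed to 3520008 to 6117245 per library, and 1347 flank intervals (83.8%, against 76.4% of all intervals) had at least 20 counts in every library. In H2afz, a floxed gene, exons 2 to 4 (chr3:137528097-137529104) held 2 intervals with 12.9, 14.9 and 9.37 CPM in CTL and 9.70, 11.4 and 12.7 CPM in those labelled H2A.Z dKO (12.4 ± 2.80 and 11.3 ± 1.52, SD, n = 3 each, exact permutation test, two-sided p = 0.6), so that fragment ends from this segment did not separate the groups. These are the exons that Cre is meant to delete. The study reports depletion of H2A.Z in this model by RT-qPCR, western blotting and immunofluorescence, and a lack of RNA-seq reads between the loxP sites. Why the fragment ends did not differ was not tested, and the floxed segment of H2afv is not given here. Marker genes gave the cells in the nuclei: the summed intervals within 1 kb of 23 muscle fibre genes held 1322 to 1591 CPM in CTL and 1451 to 1696 CPM in H2A.Z dKO, and those of 5 of 13 endothelial genes 71.1 to 82.1 and 57.4 to 64.2 CPM, groups that did not overlap. No interval lay within 1 kb of the endothelial genes Pecam1, Vwf, Emcn and Eng. The summed levels were 108 to 133 and 121 to 140.5 CPM for 6 of 9 fibroblast genes, 68.3 to 86.0 and 78.9 to 83.8 CPM for 3 of 10 satellite cell genes (Pax7 had no interval), and 0 of 8 macrophage genes had an interval. The flank held 0 intervals of these 4 non-muscle lists. Since 5.60% of all annotated protein-coding genes had a flank interval, lists this short could hold 0 without differing from that share. The part of a lower endothelial signal in the comparison of the groups was not tested. In counts of bulk nuclei, more nuclei with an open region and a region that is more open in each nucleus cannot be told apart.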

How the data were processed

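The authors deposited 1 table of raw counts: fragment ends per interval in 3 CTL and 3 H2A.Z dKO libraries. Per the labels and the methods, reads were trimmed (Trimmomatic), aligned to mm9 (Bowtie2 in the submitters' processing notes, Bowtie in the methods), cleared of duplicates (Picard) and shifted for Tn5, peaks were called with MACS2, and peaks shared by the replicates of a group were merged over both groups. Versions are not given in the sources used here. The deposited table also holds an unnamed column, another kind of value (mean scaled counts), and the authors' DESeq2 fold changes and p-values, which were not used. No column of counts was left without a sample (0).

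Positions were read against GENCODE vM1 and the mm9 genome with Python 3.11.15, pandas 2.3.3 and pysam 0.24.0. Interval starts were taken as counted from 0, since the convention is not stated, and are printed counted from 1. RPKM were computed from interval width and each library's total over the intervals, and log2 values used a pseudocount of 1. All 39768 intervals were tested with edgeR 4.0.16 (R 4.3.3, quasi-likelihood test, TMM, Benjamini-Hochberg adjustment), which was tested on simulated data, and with DESeq2 1.42.0 as an alternative. Single values per library were compared by exact permutation of libraries (two-sided, smallest p 0.1 for 3 against 3), and differences within libraries by exact sign flips (smallest p 0.031). Other normalizations, filters, TSS sets, interval widths, a replicate block and leaving out each library were also tried.

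Named intervals were the 8 with the highest mean RPKM (at least 73 bp wide, at least 20 counts in every library), for each direction the 5 with the smallest p, the 12 highest of the muscle, metabolic, H2A.Z, clock and denervation lists (1 per gene), and those of the 3 genes with the most flank intervals, where 5 genes tied. Members, lists and motifs were chosen with earlier results of these data known. Tests without H2A.Z dKO replicate 1 in each direction and for the lists, and 2 motifs, were added after seeing the data. The result of 1 gene list is not reported here.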

Additional observations from a re-analysis of the deposited data

How the results depend on the processing

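No flank interval passed an adjusted p of 0.05 in edgeR under any of the alternatives run (0 with DESeq2, other normalizations, the filter on low counts, the other TSS set and each library left out). The count at an unadjusted p under 0.05 was 65, against 32 with DESeq2 and 39 (without CTL replicate 3) to 118 (without H2A.Z dKO replicate 1) when a library was left out. The near minus far flank level of -0.073 was -0.036 with the TSSs of all transcripts, -0.065 in intervals of at least 73 bp (two-sided exact sign-flip p = 0.21875 and 0.0625 with all 6 libraries, so that neither passed) and -0.083 to -0.060 with a library left out, and the within-gene difference was -0.216 to -0.212 with a library left out. With 5 libraries the sign-flip test cannot go below 0.0625, so that no value with a library left out can pass. Leaving out a library moved the difference in flank share from -0.091 to 0.120 percentage points, the flank minus core difference between groups from -0.037 to 0.040 and the median log2 fold change from -0.050 to 0.053, with the negative value in each case without H2A.Z dKO replicate 1. The cause was not tested.

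Replicate numbers do not pair the libraries: the deviations of same-numbered libraries correlated at -0.098, -0.053 and -0.032. With a replicate block edgeR called 0 flank intervals, 58 had an unadjusted p under 0.05 and the median log2 fold change was 0.029.

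Of 35 flank intervals recomputed under the alternatives, 14 changed sign in 22 of 315 values, all with a library left out. Their log2 fold changes then ranged from -0.32 to 0.014 (Mef2d), -0.16 to 0.40 (Tpm2), -0.15 to 0.10 (Ep400), -0.065 to 0.16 (Bhlhe40), -0.12 to 0.12 (Plekhg2), -0.061 to 0.034 (Slc25a42), -0.058 to 0.13 (Zbtb7a), -0.058 to 0.28 (Slc2a4, 987 bp upstream), -0.043 to 0.031 (Mnt), -0.076 to 0.19 (Hnrnpa0), -0.096 to 0.44 (Ldb3), -0.088 to 0.20 (Lnpep), -0.028 to 0.054 (Egr1) and -0.40 to 0.039 (Esrra). The differences of the summed CPM ranged from -9.83 to 26.7 (Ankrd17), -4.78 to 2.01 (Fgf1), -27.3 to 15.0 (Nsd1), 2.60 to 20.4 (Slc2a4) and -8.57 to -2.99 (Slc43a2).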
